A study of Mus musculus with 142 samples.

Results

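The region described here is the alpha- and beta-defensin gene cluster of mouse chromosome 8, taken as every 50 kb window of chr8:18500001-22500000 in mm10. These were 80 of the 49264 windows of the 19 autosomes for which replication timing (RT) was given. The region was chosen on the measured RT difference between the homologs of these libraries, in which the strain-129 homolog replicated earlier than the CAST homolog over part of the cluster. That difference is therefore reported as a description and was not tested.

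RT was measured by E/L Repli-seq, in which nascent DNA is labelled with BrdU and the reads from early S-phase cells are set against those from late S-phase cells. Values are log2 of early over late reads per 50 kb window, so values above 0 are early and values below 0 are late. The cells were F121-9 mouse embryonic stem cells, a hybrid line with 1 homolog of each autosome from strain-129 and the other from CAST (Mus musculus castaneus), grown in serum-free 2i/LIF, and reads were assigned to each homolog by their polymorphisms. The 66 libraries came from 53 clones in 26 deletion groups.

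Every clone carried a CRISPR-mediated deletion in the Dppa2/4 domain of chromosome 16, on 1 or both homologs, and none was edited on chromosome 8 by design. An unedited F121-9 culture was not analysed here. The groups are named by the deleted elements, where A, B and C are segments of that domain, OSN marks binding sites for OCT4, SOX2 and NANOG, and TSS marks transcription start sites. The 12 groups with the COSN123 deletion (24 clones) were A.B.COSN123, A.BOSN1.COSN123, A.BOSN12.BTSS.COSN123, A.BOSN12.COSN123, A.COSN123, AOSN.B.COSN123, AOSN.BOSN12.COSN123, AOSN.COSN123, BOSN1.COSN123, BOSN12.COSN123, COSN123 and Z.AOSN.COSN123. The further deletions of these lines were introduced into the COSN123 background, which is represented by 1 clone. The other 14 groups (29 clones) were A.COSN12, AOSN.COSN12, ATSS.BTSS.CTSS, BTSS, BTSS.CTSS, CL20k, COSN1, COSN1.2.8k, COSN12, CR11.8k, CR13.4k, CR14.6k, CTSS and Z.B.C. Libraries of a clone were averaged first, and SDs are between clones.

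Defensins are small cationic peptides, held together by disulphide bonds, that kill microbes. In the mouse, alpha-defensins (cryptdins) are made by Paneth cells at the base of intestinal crypts, whereas beta-defensins are made by many epithelia, and several of them mainly by the epididymis. The genes arose by repeated tandem duplication, and clusters of this kind often differ in gene copies between mouse strains.

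Genes were placed by their lower coordinate. The annotation held 156 genes in the region, of which 40 were alpha-defensins (29 protein-coding, the others pseudogenes) and 24 were beta-defensins. No alpha-defensin was annotated elsewhere in the genome, whereas 19 beta-defensins lay on other chromosomes, so the name of the cluster fitted its content. A first run of beta-defensins extended from Defb40 to Defb7, between 18.97 and 19.50 Mb, with 4 alpha-defensin pseudogenes among them. Defb33 stood alone at 20.89 Mb. It was followed by Gm15056 and Gm6040, which the annotation also lists as Defb52 and Defb51. The main alpha-defensin run held 36 genes from Defa21 to Defa-ps11, between 21.03 and 21.75 Mb, and was followed by 9 beta-defensins from Defb1 to Defb13, between 21.78 and 21.95 Mb.

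The promoters of Defb33 and Gm15056 are shown because these genes lie in the windows with the largest difference between homologs. Each sequence covers 250 bases before to 50 bases from the annotated start, whose first base is in capitals, from RefSeq on GRCm38.p6 (the mm10 build), and is that of the reference strain C57BL/6J, not of strain-129 or CAST. Defb33 is at chr8:20892417-20892716 on the plus strand and Gm15056 at chr8:20902407-20902706 on the minus strand.
Defb33: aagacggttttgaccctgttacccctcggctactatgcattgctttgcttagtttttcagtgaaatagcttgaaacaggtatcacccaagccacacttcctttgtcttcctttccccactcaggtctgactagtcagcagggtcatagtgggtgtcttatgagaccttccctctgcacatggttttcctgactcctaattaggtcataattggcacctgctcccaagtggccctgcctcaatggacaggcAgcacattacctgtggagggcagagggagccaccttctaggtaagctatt
Gm15056: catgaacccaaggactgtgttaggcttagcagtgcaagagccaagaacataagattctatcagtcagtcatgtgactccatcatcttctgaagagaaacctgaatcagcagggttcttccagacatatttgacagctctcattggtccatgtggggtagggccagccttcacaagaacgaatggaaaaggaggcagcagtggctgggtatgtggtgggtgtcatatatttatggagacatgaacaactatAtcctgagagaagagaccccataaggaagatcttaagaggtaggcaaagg

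The promoters of Defa21 and Defa2 are shown because they illustrate how alike the copies of the alpha-defensin run are, where most windows had no RT value. Defa21 is at chr8:21025295-21025594 and Defa2 at chr8:21378267-21378566, both on the plus strand. Capitals mark the 7 of 300 bases at which the pair differed (97.7% identity without gaps).
Defa21: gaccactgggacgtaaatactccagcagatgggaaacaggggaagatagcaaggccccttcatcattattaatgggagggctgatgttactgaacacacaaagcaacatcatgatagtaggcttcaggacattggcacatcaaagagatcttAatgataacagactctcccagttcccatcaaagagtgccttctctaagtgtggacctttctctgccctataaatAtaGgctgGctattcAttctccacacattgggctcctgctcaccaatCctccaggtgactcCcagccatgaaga
Defa2: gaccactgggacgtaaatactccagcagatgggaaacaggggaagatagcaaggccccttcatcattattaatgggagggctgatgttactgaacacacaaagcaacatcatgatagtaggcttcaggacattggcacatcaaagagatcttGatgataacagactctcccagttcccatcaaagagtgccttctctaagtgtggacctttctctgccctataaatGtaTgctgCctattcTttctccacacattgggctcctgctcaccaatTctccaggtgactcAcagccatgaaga
The table held promoters for 16 of the 40 alpha-defensins, and 12 of the 16 had a partner at 90% identity or more. Defa21 equalled Defa22, and Defa2 equalled Defa20, at all 300 bases. Among the 14 beta-defensins with a promoter in the table, the most alike pair, Defb46 and Defb5, reached 51.0%.

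The cluster lay between early-replicating flanks, and the homologs differed to unlike degrees along it. On the left, the windows from 18.65 to 18.95 Mb, which hold Angpt2, encoding a ligand of the endothelial receptor Tie2, had mean values between 1.05 and 1.25 on both homologs. On the right, RT was earliest in the window at 22.45 Mb, which holds Slc20a2, encoding a phosphate transporter, and Smim19. There the strain-129 homolog had a mean of 1.35 and the CAST homolog of 1.34. In these flanks the mean difference between homologs was at most 0.04 in either direction. Between the flanks both homologs became late, with strain-129 at or above CAST in most places. Around Defb33, however, the strain-129 mean lay near 0, at 0.06 and −0.02 in the windows at 20.80 and 20.85 Mb. Over the whole region, flanks included, the mean difference was above 0 in 39 of the 45 windows with both homologs in at least 27 of the 53 clones. The median over all such autosomal windows was −0.01. As the region was chosen on this contrast, nothing is read from that count.

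**Figure D1:**
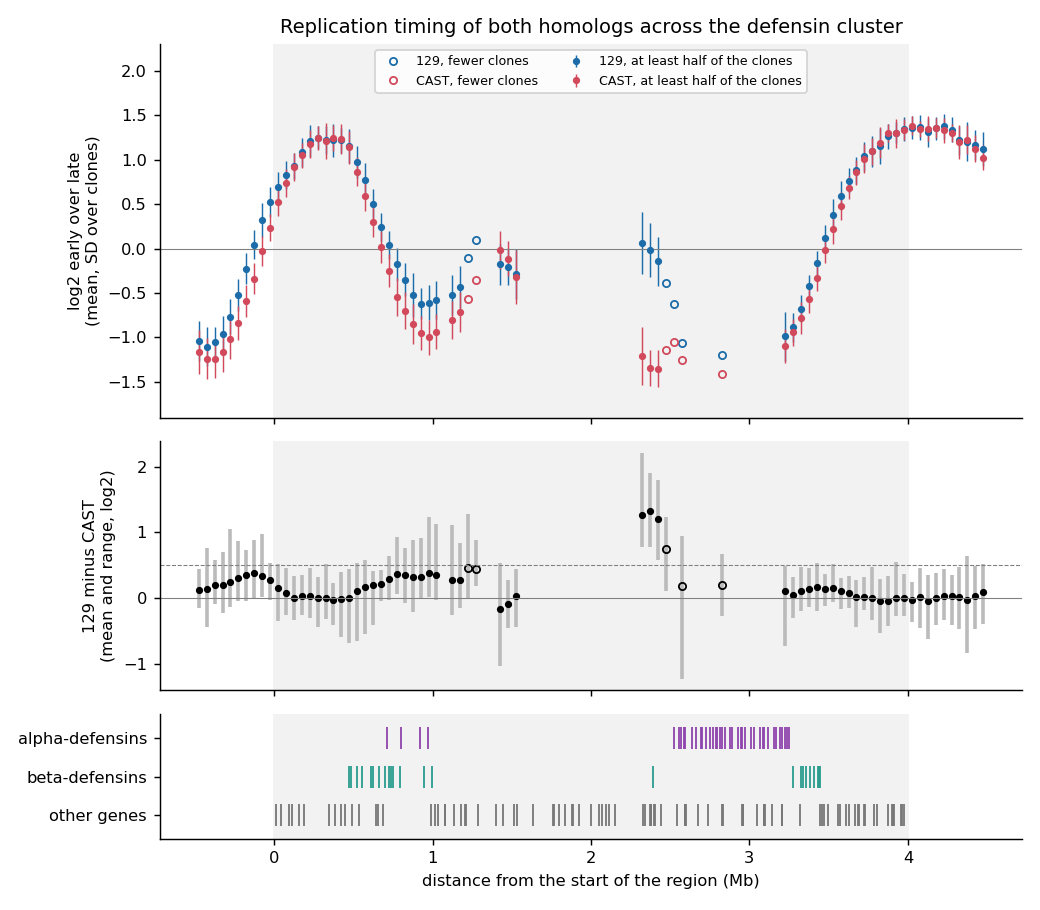
RT of both homologs (top, log2 early over late, mean and SD over clones), strain-129 minus CAST (middle, mean with the lowest and highest clone, dashed line at 0.5) and start positions of genes (bottom) against the distance from the start of the region in Mb. Filled points have both homologs in at least 27 of the 53 clones, open points in fewer, and the shaded area is the region. The homologs nearly coincide in the early windows around Angpt2 and Slc20a2. Strain-129 lies above CAST by 0.29 to 0.38 just left of the region. It lies above by 0.29 to 0.39 from Defb6 to Defb7 at the end of the first beta-defensin run, and by more than 1 around Defb33.

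Along the first run of beta-defensins RT fell steeply on both homologs, and further left on CAST. The window of Defb40 and Defb37 was early, at 1.15 on strain-129 and 1.14 on CAST. Defb14, the mouse counterpart of a human beta-defensin of skin, lay in a window at 0.24 ± 0.15 on strain-129 and 0.02 ± 0.18 on CAST (SD, n = 53). The last gene of the run, Defb7, lay in a late window, where strain-129 was at −0.61 and CAST at −1.0. The 2 homologs thus passed from early to late at different places. The strain-129 homolog crossed 0 at 19.24 Mb and CAST at 19.18 Mb, a mean shift of −57.1 ± 28.9 kb (SD, n = 53), and the CAST crossing lay further left in 52 of 53 clones.

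The left side of the same early block showed the mirror image. Just outside the region, from 18.25 Mb up to its left edge, the mean difference was 0.29 to 0.38 in 5 windows. The strain-129 homolog crossed into the early block at 18.37 Mb and CAST at 18.43 Mb, with CAST further right in 53 of 53 clones by a mean of 63.3 ± 27.4 kb. The early block with Mcph1, the microcephalin gene, was thus wider on strain-129 than on CAST at both ends. Each of these shifts is about the size of 1 window and well under the 300 kb span over which the profiles had been smoothed.

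Over the 9 measured windows from 19.20 to 19.70 Mb, the mean difference was between 0.28 and 0.39. Over these windows the clone means of strain-129 minus CAST had a lowest value of 0.12, a median of 0.32 and a highest of 0.92, so that strain-129 was earlier in all 53 clones. The levels themselves overlapped between homologs. On strain-129 they ranged from −0.84 to −0.12 and on CAST from −1.20 to −0.40.

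A small group of windows followed in which the mean difference was near or below 0. The windows at 19.90, 19.95 and 20.00 Mb, the first of which holds 9530057J20Rik, had mean differences of −0.16, −0.09 and 0.03, with strain-129 earlier in 5 of 31, 9 of 31 and 17 of 28 clones. The first of them had the lowest mean difference of the region, −0.16 ± 0.26 (SD, n = 31). In the 33 clones with a value in these windows, the mean difference was above 0 in 10. These windows were measured in more clones of some lines than of others.

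The largest difference lay around Defb33. The run of windows with a mean difference of at least 0.5 extended over 4 windows, from 20.80 to 21.00 Mb. This run is shorter than the 300 kb span of the smoothing, so the values of its windows are not separate measurements. In the window at 20.80 Mb, which holds pseudogenes only, strain-129 was at 0.06 ± 0.35 and CAST at −1.21 ± 0.33 (SD, n = 28), and the difference within a clone ranged from 0.78 to 2.21. In the window of Defb33, at 20.85 Mb, strain-129 was at −0.02 ± 0.30 and CAST at −1.34 ± 0.20 (SD, n = 51). In the window at 20.90 Mb, with Gm15056, Gm6040 and the protein-coding gene AY761185, strain-129 was at −0.15 ± 0.28 and CAST at −1.35 ± 0.21 (SD, n = 51). There the difference had a lowest value of 0.59, a median of 1.23 and a highest of 1.80, with strain-129 earlier in all 51 clones. The CAST value of that window was the latest of the region on either homolog among the windows with both homologs in at least 27 clones. The last window of the run had a mean difference of 0.75 ± 0.33 in 17 clones, the value just inside the threshold, and the value just outside was 0.43 in the only clone with both homologs at 21.00 Mb.

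The Defb33 window had mid-S RT on strain-129 and late RT on CAST. The strain-129 values of the 51 clones had a lowest value of −0.56, a median of 0.01 and a highest of 0.52, and 28 of them were above 0. The CAST values had a lowest value of −1.75, a median of −1.36 and a highest of −0.82. The 2 sets of values did not overlap. The difference within a clone ranged from 0.77 to 1.90 with a mean of 1.32 ± 0.26 (SD, n = 51), and 45 of the 51 clones differed by 1 or more.

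**Figure D2:**
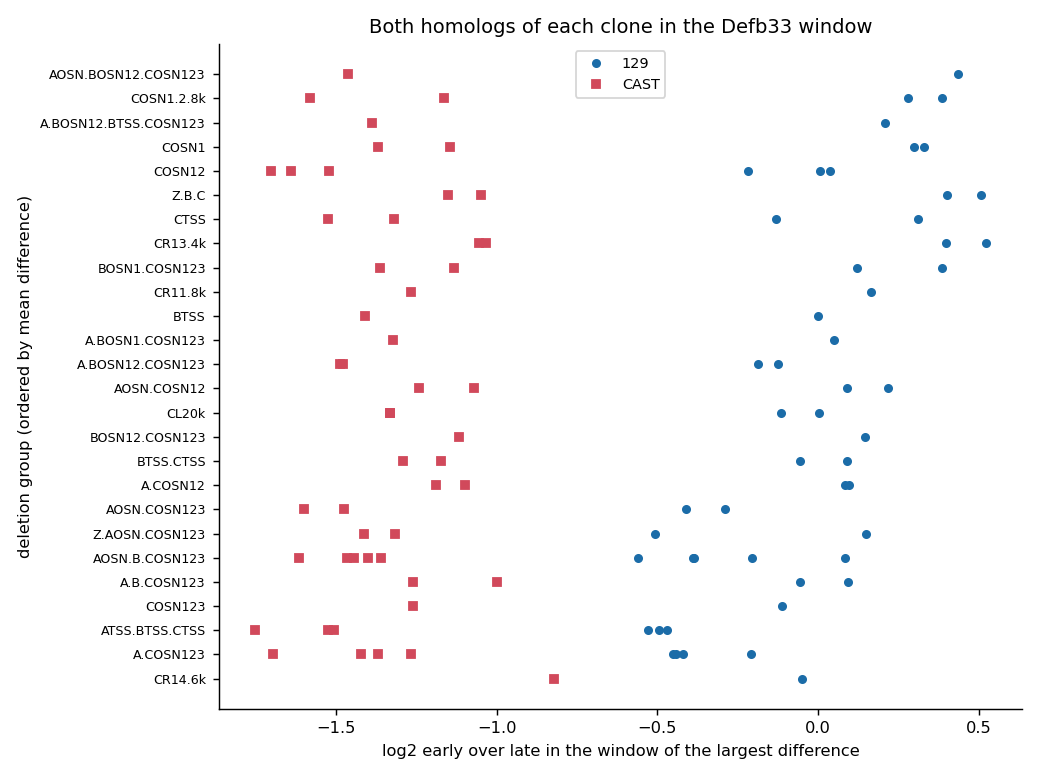
RT of the strain-129 (circles) and CAST (squares) homologs in the Defb33 window, in log2 early over late, for each of 51 clones, with a row for each of the 26 deletion groups ordered by mean difference. The lowest strain-129 value, −0.56, lies above the highest CAST value, −0.82.

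Set against the other autosomal windows, this difference was among the larger ones. Of 44259 windows with both homologs in at least 27 clones, 1088 had a mean difference of at least 0.5 and 79 of at least 1. The 3 windows of the cluster at or above 1 were the only ones of chromosome 8, and the Defb33 window ranked 17. The SD of the mean difference over all these windows was 0.24 around a median of −0.01. In 6 of the 45 windows of the cluster, strain-129 was above CAST in every clone with both values, against 3.94% of all windows. As the region was chosen on this contrast, nothing is read from that share.

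Neither border of the stretch around Defb33 could be placed closely, since windows with few or no values lay on both sides. To its left, 15 windows had no value on either homolog, and the next measured window, at 20.00 Mb, had a mean difference of 0.03. The step from there to 1.27 thus lies somewhere within 0.75 Mb that were not measured. That gap holds the protein-coding genes Gm15319, Gm40469 and Gm21119. Its 2 ends rest on partly different clones. At 20.00 Mb, 7 COSN123 clones and 21 others had both homologs, and at 20.80 Mb 12 and 16. To the right of the stretch around Defb33, the difference shrank over 3 windows towards Defa21, but in ever fewer clones. Defa21 is the first alpha-defensin of the main run. At 20.90 Mb, strain-129 was at −0.15 and CAST at −1.35 (n = 51). In the only clone with both homologs at 21.00 Mb, they were at −0.62 and −1.06. As these windows rest on different clones, the part of each homolog in the shrinkage was not tested. At 20.95 Mb, 17 clones had both homologs, of which 13 differed by at least 0.5 and 4 by less. In single clones, the run ended at 20.95 Mb in 36 of 53 clones, at 21.00 Mb in 12, at 21.10 Mb in 3 and at 20.90 Mb in 2. Of the 36 runs that ended at 20.95 Mb, 32 lacked both homologs in the next window and 4 had a difference below 0.5 in it. The run began at 20.80 Mb in 28 clones, which were all the clones with both homologs in that window, at 20.85 Mb in 23, at 20.90 Mb in 1 and, across the unmeasured windows, at 19.45 Mb in 1. The mean over the whole region was smaller than over the stretch, at 0.19 ± 0.06, with a lowest clone at 0.04 and a highest at 0.33.

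Most of the alpha-defensin run itself had no RT value. Of the 40 alpha-defensins, 24 started in windows without both homologs in any clone, 8 in windows with both in fewer than 27 clones and 8 in windows with both in 27 or more. All 24 beta-defensins started in windows with both homologs in at least 27 clones. Of the last 8 alpha-defensins, 4 were pseudogenes of the first run, and the other 4 belonged to the window at 21.70 Mb, with Defa39 and Defa24, where strain-129 was at −0.99 ± 0.27 and CAST at −1.10 ± 0.19 (SD, n = 44), the latest mean of strain-129 among the windows with both homologs in at least 27 clones. Within the run, the window of Defa23 had both homologs in 8 clones. There the difference ranged from −1.22 to 0.95, with strain-129 earlier in 6 of the 8.

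The last 9 beta-defensins lay on the rise into the right flank and showed a small difference. The window of Defb1, which is expressed in many epithelia, was at −0.89 on strain-129 and −0.94 on CAST, and the window of Defb13 at −0.16 and −0.33. The mean differences of their 4 windows were between 0.06 and 0.17. The strain-129 homolog crossed 0 at 21.95 Mb and CAST at 21.98 Mb, a mean shift of 27.7 ± 21 kb, with CAST further right in 48 of 53 clones. The lower coordinate of Atp7b, which encodes a copper transporter, lay in the window of this crossing.

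The share of windows with a value was lower in the cluster than on the autosomes as a whole. In the 53 clones, 52.5% to 63.8% of the 80 windows had a strain-129 value (median 57.5%) and 48.8% to 63.8% had a CAST value (median 56.3%). Over all autosomal windows, the medians were 89.0% for strain-129 and 87.7% for CAST. No clone had both homologs in 29 windows of the cluster, which is 36.3%, against 5.50% of all windows. A further 6 had both in fewer than 27 clones. The empty windows formed 4 blocks, from 19.80 to 19.90, 20.05 to 20.80, 21.10 to 21.30 and 21.35 to 21.70 Mb, and a single window at 19.55 Mb had values on each homolog, but never both in the same clone.

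The windows without values were rich in sequence that recurs on chromosome 8. For each window, the share of its 31-base words that occur more than once on the chromosome, on either strand, was counted in the reference sequence. In the 29 windows without both homologs in any clone the median share was 91.8%, in the 6 sparse windows 77.0%, and in the 45 windows with both homologs in at least 27 clones 18.4%. In 2382 such windows on the rest of chromosome 8 it was 6.51%. Of the 29 windows, 7 were mostly unsequenced bases in the assembly. The 4 windows around Defb33 stood at 68.7%, 38.4%, 19.2% and 30.3% from left to right. The sequence around Defb33 thus recurred less than that of the unmeasured blocks on either side. In each of the 4 windows it recurred more than the median of the 45 windows of the cluster, 18.4%. Whether recurring sequence accounts for the missing values was not tested.

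The windows bordering the gaps were measured unevenly among the lines. At 19.95 Mb, 24 of the 29 clones of the other lines had both homologs and 7 of the 24 COSN123 clones. At 19.70 Mb these counts were 20 and 5. At 20.80 Mb they were 16 and 12, and at 20.95 Mb 9 and 8. Means over the stretch around Defb33 therefore rest on different windows in different clones, and the part of this in the comparison of lines was not tested.

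Whether the homolog difference depended on the line of the clone was asked next, a contrast the choice of the region did not use. In the COSN123 lines, strain-129 minus CAST in the Defb33 window had a lowest value of 0.83, a median of 1.26 and a highest of 1.90 (n = 24). In the other lines it had a lowest value of 0.77, a median of 1.41 and a highest of 1.86 (n = 27). The ranges overlapped almost fully. The difference of the means was −0.13 ± 0.07 (SE), with p = 0.0481 and adjusted p = 0.429 in the limma fit over all windows. Of the 42 windows of the cluster that were tested, 0 passed at an adjusted p of 0.05, and 4 had an unadjusted p under 0.05. Over all 42913 windows tested, 0.333% passed and 4930 had an unadjusted p under 0.05, so nothing is read from the unadjusted count. The largest line difference of the cluster, −0.17 ± 0.07, was in the window at 20.90 Mb (adjusted p = 0.278).

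On the single homologs, the fit also called 0 windows of the cluster. For strain-129, 0 of 44 windows passed and 10 had an unadjusted p under 0.05. Of all 44575 windows tested, 1.31% passed and 6341 had an unadjusted p under 0.05. In the Defb33 window strain-129 was at −0.13 in the COSN123 lines and at 0.08 in the others, a difference of −0.21 ± 0.07 (adjusted p = 0.149). For CAST, 0 of 42 passed and 2 had an unadjusted p under 0.05. Of all 44501 windows tested, 0.528% passed and 4987 had an unadjusted p under 0.05. In the Defb33 window CAST was at −1.38 in the COSN123 lines and at −1.31 in the others. Per the paper, COSN12 and COSN123 were both made by further deletions in the COSN1 line, so the other lines also hold clones of related descent. As the COSN123 lines share their background, the contrast does not tell the deletion and shared descent apart. Nor does it set clones without the C OSN sites against clones with them, since CR13.4k, CR14.6k and Z.B.C, among the other lines, also lack these sites. In the Defb33 window the strain-129 means of these groups, over clones with both homologs, were 0.46 (n = 2), −0.05 (n = 1) and 0.46 (n = 2). These values were not tested against those of the COSN123 lines.

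As means over the 4 windows of the stretch, strain-129 minus CAST was 1.12 ± 0.23 in the COSN123 lines (SD, n = 24) and 1.30 ± 0.22 in the others (SD, n = 29). No p is given for these means, since their windows were chosen on these libraries. Over the 2 windows measured in nearly all clones, at 20.85 and 20.90 Mb, the corresponding means were 1.18 ± 0.23 and 1.33 ± 0.25. In all 53 clones the difference over the stretch was above 0, from 0.72 to 1.86.

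The deletion groups were compared with each other in the same way, by limma's moderated F over the 19 groups with at least 2 clones. The Defb33 window passed, with 44 of the 46 clones measured (limma, adjusted p = 0.0330), and it was the only 1 of 46 tested windows of the cluster to do so, while 6.89% of all windows passed. A share of 2.17% is below that background, so the call says nothing particular about the cluster. Among the groups with at least 2 measured clones, the mean difference was lowest in A.COSN123, at 1.06 ± 0.20 (SD, n = 4), and ATSS.BTSS.CTSS, at 1.10 ± 0.16 (SD, n = 3). It was highest in COSN1.2.8k, at 1.71 ± 0.22 (SD, n = 2), and COSN1, at 1.57 ± 0.18 (SD, n = 2). The call was lost without A.COSN123 clone H10 (limma, adjusted p = 0.0515) and without COSN1.2.8k clone 4 or 18 (adjusted p = 0.0576). It was also lost without CR14.6k clone 16 or 53 (adjusted p = 0.0555), and held in the other 41 of 46 fits. Leaving out 1 clone of a group of 2 removed the whole group, since the fit used groups with at least 2 clones. For such groups either clone therefore gave the same fit.

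The spread between clones was close to that between libraries of a clone. In 11 clones with more than 1 library in this window, 24 libraries in all, the pooled SD of strain-129 minus CAST between libraries was 0.29. The SD between the 51 clones was 0.26. For the mean over the stretch, these SDs were 0.20 and 0.24.

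Across clones, the homologs moved together in the Defb33 window. Clones with an earlier strain-129 homolog had an earlier CAST homolog, with Pearson's r = 0.55 (permutation p = 4e-05, adjusted p = 0.00012 over 3 relations) and Spearman's rho = 0.60 (p = 2e-05, adjusted p = 6e-05) over 51 clones. Without the 2 clones farthest from the median of CAST, r was 0.58. It was 0.48 within the COSN123 lines (n = 24, p = 0.0177) and 0.58 within the others (n = 27, p = 0.00174). Both values of a clone come from the same libraries and the same scaling, and their part in this relation was not tested. The relation had been planned over the stretch, where r was 0.53 (n = 53). Here and in the relations below, the permutations took clones as independent, although the COSN123 lines share their background and clones share deletion groups.

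**Figure D3:**
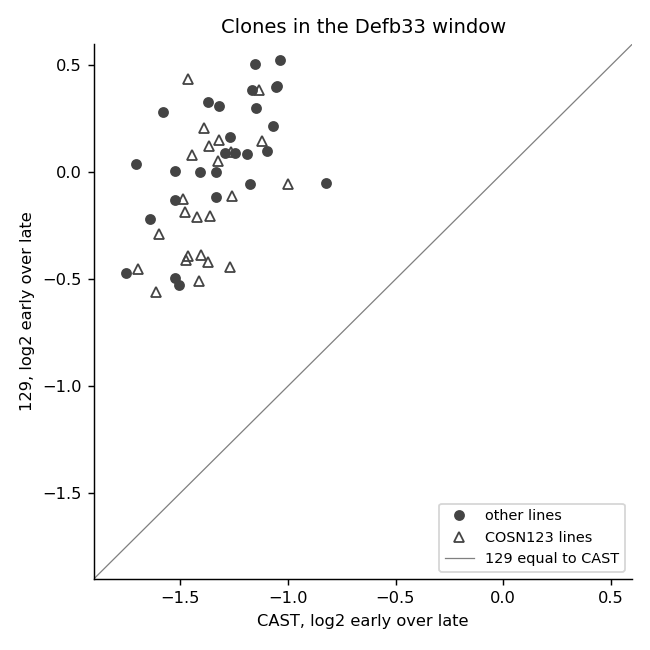
RT of the strain-129 homolog against the CAST homolog in the Defb33 window, in log2 early over late, for 51 clones. Filled circles are the other lines, open triangles the COSN123 lines, and the diagonal marks equal RT. All 51 points lie above the diagonal and the homologs rise together (r = 0.55).

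The difference in the Defb33 window showed no detectable relation with the share of cluster windows that had a CAST value (r = 0.25, permutation p = 0.0742, rho = 0.25, permutation p = 0.0748, n = 51, neither changed by adjustment over 3 relations). Without the 2 farthest clones r was 0.22, and within the lines it was 0.10 (COSN123) and 0.26 (others). Its relation with the SD of strain-129 minus CAST over all windows of a clone, a measure of the spread of a clone's profiles, gave r = 0.32 (permutation p = 0.0221, adjusted p = 0.0332) and rho = 0.34 (p = 0.0158, adjusted p = 0.0238). This call was made only in the Defb33 window, a choice made after seeing the data, and was lost for the mean over the stretch, where r was 0.15. In the single window r was 0.29 without the 2 farthest clones. Within the COSN123 lines r was 0.61 (permutation p = 0.00169, n = 24) and within the others −0.10 (permutation p = 0.616, n = 27), so the relation did not hold within both sets of lines. The difference between them was not tested.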

How the data were processed

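Per the study's methods, the authors labelled cells with BrdU, sorted early and late S phase, and trimmed reads with TrimGalore. Alignment was by bowtie2 to an N-masked mm10 genome, SNPsplit gave each read its homolog, and Samtools removed duplicates. The deposited values are log2 ratios of early to late reads in 50 kb windows, scaled and quantile-normalized by the authors and then smoothed by loess over 300 kb, so neighbouring windows share reads and short differences are damped. Tool versions are not given in the sources used here.

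All 138 columns (66 libraries, 53 clones) were used. The labels list 10 further samples (5 libraries), not analysed here. Repeat runs (3 clones) were averaged within a library and libraries within a clone. Depth is unknown, and precision rests on the spread between clones, which may be partly technical.

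Clone means were fitted with limma 3.58.1 (R 4.3.3) over all windows measured in at least 0.5 of the clones of each set of lines (of all clones for the F test), with Benjamini-Hochberg adjustment, threshold 0.05, two-sided, and the F test used groups with at least 2 clones. Relations used permutation tests of 100000 resamples (numpy 2.4.6), in the Defb33 window. The permutation tests planned for means over chosen windows are not printed. The fits were tested on simulated data.

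Genes and sequences are RefSeq's on GRCm38.p6, the mm10 build. The region and lists were chosen with earlier results of these data known. Named are the first and last gene of each defensin run, genes of the extreme windows and genes next to the borders. Angpt2, Mcph1, Atp7b, Defb14, Defa23 and the printed promoters were picked after values were seen. Alternatives covered the unit, repeat runs, interpolation, centring, scaling, the threshold of the stretch, filters, robust fits, clones left out and the replicate block.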

Additional observations from a re-analysis of the deposited data

Results flagged for a closer look

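A clone far from the others of its deletion group was sought in A.COSN123 (n = 4) and AOSN.B.COSN123 (n = 5), the groups large enough for the rule. The 8 checks used overlapping means of the same clones, so they were not independent, and 1 check marked a clone. Over the stretch around Defb33, the CAST homolog of A.COSN123 clone B7 was at −1.64, whereas the other clones of that group were at −1.28, −1.29 and −1.30. In the Defb33 window alone, CAST was at −1.70 in this clone and at −1.27, −1.37 and −1.42 in the others. At the critical value used, chance alone marks about 1 in 20 such checks.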

How the results depend on the processing

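Over the stretch around Defb33, the mean strain-129 minus CAST difference stayed between 1.202 and 1.265 under all alternatives. Interpolating over the unmeasured windows raised the mean over the region from 0.19 to 0.37, since the interpolated values come from the flanks of the gaps. The right border moved from 21.00 Mb to 21.05 Mb with a threshold of 0.25 and to 20.95 Mb with a threshold of 1. The relation of the difference with the SD over all windows of a clone had r = 0.15 over the stretch, which did not pass, and r = 0.32 in the Defb33 window alone, which passed, an alternative chosen after seeing the data. With libraries in place of clones, 1 of 41 windows of the cluster passed for CAST between lines (21.70 Mb, limma adjusted p = 0.0311). Over all windows, 953 of 44196 passed in that setting, where libraries of a clone are counted as separate. Nothing is read from this call.

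Leaving out each clone in turn, the COSN123 lines minus the others ranged from −0.20 to −0.16 for the difference over the stretch, from −0.24 to −0.20 for strain-129, from −0.06 to −0.03 for CAST and from −0.03 to −0.01 for the region. In the comparison of deletion groups, 0 to 3 windows of the cluster passed, with 0 in the 5 fits named in the report. Without ATSS.BTSS.CTSS clone C4, 3 of 46 passed, against 4261 of 43719 over all windows. Without COSN12 clone B6, 2 of 45 passed, against 2892 of 43714 over all windows. Nothing is read from these counts.

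Over all windows, calls between lines for the difference went from 143 to 474 with libraries as units and to 46 without 4 of the 8 clones edited on both homologs, those of AOSN.B.COSN123 and A.B.COSN123. For strain-129 they went from 586 to 1825 with libraries as units, and for CAST from 235 to 953, or to 717 with centred profiles. Centring turned the split from 71 higher and 515 lower to 472 and 49 for strain-129, and from 90 and 145 to 676 and 41 for CAST. For the difference, it was 26 higher and 117 lower, and 38 and 64 with centring. In the comparison of groups, 2342 to 4261 windows passed with a clone left out, against 3030. Replicate numbers did not pair the samples (r between deviations −0.11 to 0.21, over 0.1 in 1 of 55 pairs). The replicate block left 0 windows of the cluster called, as without it, with 100 and 117 calls over all windows. Read depth is unknown, so counting error could not be given.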
